A study of Macaca mulatta with 6 samples.

Results

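The HIF factors, the prolyl hydroxylases and the proteins that act with them were described in rhesus monkey cultures that the study reports as spermatogonial stem cells (SSCs). Sperm are made from SSCs throughout adult life. The members were chosen by gene name: the alpha subunits HIF1A, EPAS1 and HIF3A, the beta subunits ARNT and ARNT2, the prolyl hydroxylases EGLN1, EGLN2 and EGLN3, the asparaginyl hydroxylase HIF1AN, and VHL. The family was picked for description with the difference between cultures with and without PDGF already known, so that difference is given here as a description, with its error and interval and no p. Where a member is said to be called or not, this states on which side of the threshold of the fit over all genes it fell, and it is not independent evidence of a difference. Of the 10 genes named, 8 were found among the 17795 rows of the count table and all 8 passed the count filter; EGLN1 and VHL were not analysed here.

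Bulk RNA sequencing had been performed on 3 PDGF libraries, from cultures that received platelet-derived growth factor, and on 3 PDGFNO libraries, from PDGF-free controls. The labels call the source testis, and the culture methods describe SSCs in droplets of basement membrane extract under a medium with GDNF, EGF, bFGF, LIF, Wnt3a, serum and vitamin C. Vitamin C is a reducing agent that keeps prolyl hydroxylases active. The oxygen level, the donors, their age and the days in culture of these libraries are not stated. Replicate 1 of each group belongs to batch 1 and replicates 2 and 3 to batch 2, and nothing states that these replicates were separate cultures, so the errors below measure the spread between libraries, which may be technical.

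In cells with enough oxygen, prolyl hydroxylases modify the alpha subunits, VHL then binds the hydroxylated proline, and its ligase complex marks the protein for degradation. When oxygen is short, the alpha subunit accumulates, pairs with ARNT or ARNT2, and switches on genes of glycolysis, iron handling and vessel growth. The asparaginyl hydroxylase HIF1AN adds a second brake by blocking the contact between the alpha subunit and its coactivators. Most of this control acts on the protein, which RNA sequencing does not measure. In the testis, where seminiferous tubules hold no vessels, germ cells live at low oxygen.

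The sites at which the hydroxylases meet their substrates are shown because they are what the enzymes of the family act on in its alpha subunits. A prolyl hydroxylase acts on the proline that ends an LxxLAP motif. The longest RefSeq protein models of rhesus (annotation of Mmul_10) had 827 residues and 2 such motifs in HIF1A, 882 residues and 2 motifs in EPAS1, and 876 residues and 1 motif in HIF3A. The coding stretches below are read along the mRNA from upstream to downstream, and the capitals mark the codon of that proline.
HIF1A, proline 403: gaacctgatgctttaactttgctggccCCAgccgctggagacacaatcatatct
EPAS1, proline 418: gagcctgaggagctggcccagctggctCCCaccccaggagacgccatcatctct
HIF1A, proline 565: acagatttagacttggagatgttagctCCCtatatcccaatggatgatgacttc
EPAS1, proline 543: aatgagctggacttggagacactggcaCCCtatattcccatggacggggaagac
HIF3A, proline 692: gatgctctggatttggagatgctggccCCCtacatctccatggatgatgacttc

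The target of HIF1AN is an asparagine near the carboxyl end of the alpha subunit. A script found its surrounding motif once in HIF1A, once in EPAS1 and 0 times in HIF3A, and the capitals mark the asparagine codon.
HIF1A, asparagine 804: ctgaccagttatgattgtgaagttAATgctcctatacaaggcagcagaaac
EPAS1, asparagine 859: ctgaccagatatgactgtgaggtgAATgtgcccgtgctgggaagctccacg

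Library totals lay between 13095467 and 14102697 counts with PDGF and between 10593805 and 11605908 without, so depth moved with the group. Counts were normalized with TMM, and levels are given in counts per 1000000 (CPM). A gene is called when edgeR's quasi-likelihood test over 11539 genes gives a Benjamini-Hochberg adjusted p under 0.05. Of all genes tested, 7.61% were called higher with PDGF and 10.7% were called lower, and the median log2 fold change was 0.02. The cell type labelled was checked against its markers. In each library 12 undifferentiated spermatogonial markers summed to between 353 and 465 CPM, most of it from UCHL1 and ID4, while 8 fibroblast and stromal markers summed to between 14112 and 19429 CPM. DDX4, a general germ cell gene, was at 0.305 CPM with PDGF and 2.13 CPM without. Of the spermatogonial markers, GFRA1 was at 0.118 and 0.538 CPM, ZBTB16 at 0.0261 and 0.264, and SALL4 at 0.0250 and 0.624, in the same order. FGFR3 had a higher level, at 13.7 and 57.8 CPM. UCHL1 went the other way between groups, at 263 CPM with PDGF and 185 CPM without, while ID4 was at 131 and 163 CPM. Of the 6 spermatogonial markers tested, 1 (UCHL1) was called higher with PDGF and 3 lower, beside 7.61% and 10.7% of all genes. The levels below are those of whole cultures, in which stromal markers far exceeded spermatogonial ones, and not of SSCs alone. Since the libraries are bulk samples, fewer cells of a type and less RNA per cell cannot be told apart.

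Across the family, HIF1A and EPAS1 were higher with PDGF, ARNT2 and EGLN3 were lower, and ARNT, EGLN2, HIF1AN and HIF3A were not called. The counts were 2 members higher and 2 lower of 8, beside the 7.61% and 10.7% of all genes tested; nothing is read from this count, since the family was picked with this contrast known. The median log2 fold change of the 8 members was -0.11. With the replicate number as a block, which pairs libraries of the same batch, ARNT was called higher and EGLN2 lower as well. That made 3 members higher and 3 lower, where 31.1% of all genes were called higher and 29.0% lower.

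**Figure D1:**
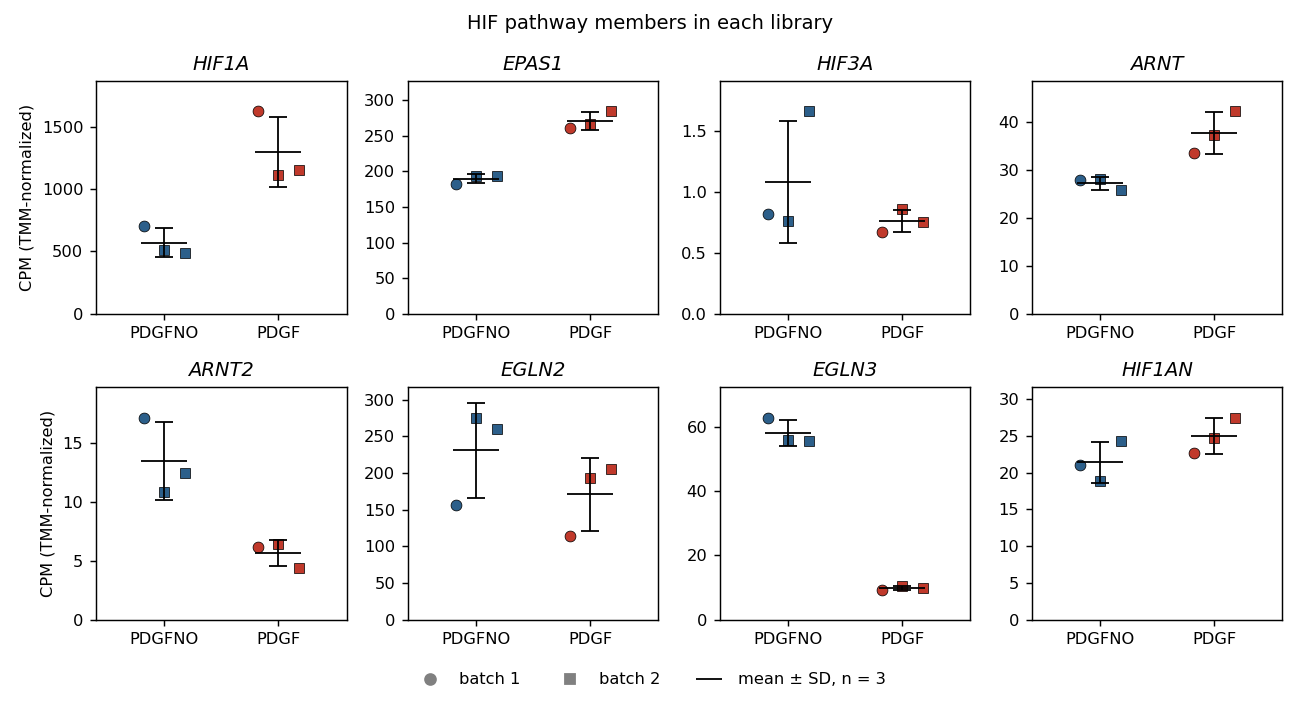
Level of each of the 8 members in each library (vertical axes, CPM after TMM normalization, each starting at 0) for the PDGFNO and PDGF groups, with circles for batch 1, squares for batch 2, and bars for the mean ± SD of 3 libraries. The groups do not overlap for HIF1A, EPAS1, ARNT, ARNT2 and EGLN3, and they overlap for HIF3A, EGLN2 and HIF1AN.

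HIF1A encodes the broadly expressed alpha subunit that drives the acute response to low oxygen. It was at 1623, 1115 and 1151 CPM in PDGF replicates 1, 2 and 3, and at 703, 513 and 488 CPM in PDGFNO replicates 1, 2 and 3. Every PDGF library lay above every PDGFNO library, and in both groups replicate 1 was the highest. The means were 1296 ± 284 CPM with PDGF and 568 ± 117 CPM in the controls (SD, n = 3 each). The log2 fold change was 1.19 (standard error 0.20, 95% interval 0.73 to 1.65), a level 2.28-fold higher with PDGF. It was 1.21 within batch 1 and 1.18 within batch 2. Among all genes tested, 11.0% had an absolute log2 fold change at least this large. With any 1 library left out it was 1.01 to 1.36. Summing replicates 2 and 3 within each group, which was added once the data were known, gave 1.21 and lost the call.

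EPAS1 encodes the alpha subunit HIF-2 alpha, which is known from endothelial and stromal cells. It was at 260.5, 267 and 285 CPM in PDGF replicates 1, 2 and 3, and at 183, 193 and 193 CPM in the PDGFNO replicates. The groups did not overlap, and the gap between them was wider than the spread within either. The means were 271 ± 12.5 CPM (SD, n = 3) and 189.8 ± 6.09 CPM (SD, n = 3), and the fitted log2 difference was 0.51 (standard error 0.12, 95% interval 0.24 to 0.78). This was 1.43-fold, a smaller difference than that of HIF1A, and it was 0.51 within each batch. The call was lost without PDGF replicate 2 (log2 fold change 0.53) or 3 (0.48) and without PDGFNO replicate 2 (0.53) or 3 (0.53), and also with replicates 2 and 3 summed (0.53). Of 10 endothelial markers listed 9 were in the table, 7 were tested, and their summed level was 15.3 to 18.4 CPM with PDGF and 14.1 to 20.5 CPM without. These markers went both ways. ERG, an endothelial transcription factor, was called lower (log2 fold change -2.29). It had only 2, 8 and 6 counts in the PDGF replicates and 17, 28 and 19 in the PDGFNO replicates. PECAM1 (0.80) and TEK (-1.04, with 7 to 34 counts) were called only with the replicate block. VWF (-0.54), CDH5 (0.09) and KDR (0.15) were called in neither fit. The 8 fibroblast and stromal markers summed to 14112 to 19429 CPM with PDGF and 16966 to 19153 CPM without. Of these markers 0 were called higher and 2 lower, beside 7.61% and 10.7% of all genes tested. With the replicate block 2 were called higher and 5 lower, beside 31.1% and 29.0% of all genes. The part of endothelial or stromal cells in the EPAS1 difference was not tested.

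HIF3A encodes another alpha subunit, several isoforms of which restrain the others. It had 10, 11 and 10 counts in the PDGF replicates and 10, 8 and 17 counts in the PDGFNO replicates. The groups overlapped, and 1 PDGFNO library stood above the other 5. Over the group totals, 31 counts with PDGF against 35 without gave a ratio of 0.717 with an exact 95% binomial (Clopper-Pearson) interval of 0.428 to 1.20, which covers counting error only. The fitted log2 fold change was -0.50 (standard error 0.47), so at this depth no difference could be detected. It ran from -0.68 to -0.06 with a library left out, the value nearest 0 being that without PDGFNO replicate 3.

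ARNT encodes the beta subunit that both HIF1A and EPAS1 proteins need in order to bind DNA. It was at 33.7, 37.4 and 42.3 CPM in the PDGF replicates and at 28.0, 28.1 and 25.7 CPM in the PDGFNO replicates. The groups did not overlap, although PDGF replicate 1 lay close to the controls. The means were 37.8 ± 4.32 CPM (SD, n = 3) and 27.3 ± 1.34 CPM (SD, n = 3), and the log2 fold change was 0.47 (standard error 0.16, 95% interval 0.11 to 0.83), not called. It was 0.27 within batch 1 and 0.56 within batch 2, and with the replicate block it was 0.46 and called.

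ARNT2, the beta subunit best known from neurons, went the other way. It was at 6.14, 6.41 and 4.43 CPM in the PDGF replicates and at 17.1, 10.8 and 12.4 CPM in the PDGFNO replicates. No library of one group reached the range of the other, and PDGFNO replicate 1 was the highest. The means were 5.66 ± 1.07 CPM (SD, n = 3) and 13.5 ± 3.29 CPM (SD, n = 3), and the fitted log2 difference was -1.25 (standard error 0.25, 95% interval -1.84 to -0.67). The level was 2.38-fold lower with PDGF. The difference was -1.48 within batch 1 and -1.12 within batch 2. Its call was lost without PDGF replicate 3 (log2 fold change -1.09) and with replicates 2 and 3 summed (-1.30).

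EGLN3 encodes the prolyl hydroxylase PHD3, which is itself a known target of HIF and prefers the proline nearer the carboxyl end of the alpha subunit (565 in HIF1A and 543 in EPAS1, shown above). It was at 9.24, 10.6 and 9.99 CPM in the PDGF replicates and at 62.9, 55.9 and 55.5 CPM in the PDGFNO replicates. The replicates lay close together in both groups, and the groups lay far apart. The means were 9.95 ± 0.694 CPM (SD, n = 3) and 58.1 ± 4.14 CPM (SD, n = 3). The log2 fold change was -2.55 (standard error 0.16, 95% interval -2.91 to -2.18), a level 5.84-fold lower with PDGF. This was the largest difference among the 8 members, and 3.58% of all genes tested had one at least as large in either direction. It was -2.76 within batch 1 and -2.43 within batch 2. Under the 17 alternative fits run it was -2.61 to -2.45.

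The genes whose pattern over the 6 libraries lay nearest to EGLN3 were KRT80, ROPN1B and PHF7. They had Euclidean distances of 0.305, 0.371 and 0.378 in log2(CPM + 1) centred on each gene's mean, among 10585 genes with an average log2 CPM of at least 1. KRT80 encodes a keratin. ROPN1B encodes a protein of the sperm tail, and PHF7 encodes a chromatin reader of spermatids. PHF7 averaged 75.8 ± 8.43 CPM (SD, n = 3) in the controls against 13.9 ± 1.02 CPM (SD, n = 3) in the PDGF libraries. Its log2 fold change of -2.45 was near the -2.55 of EGLN3. KRT80 was at 5.24 CPM without PDGF and 0.0971 CPM with it (-5.61), and ROPN1B at 5.49 and 0.313 CPM (-4.08). With PDGF both were near the floor, where adding 1 to CPM shrinks differences, so their fold changes were unlike that of EGLN3. Spermatid markers moved in the same direction: of 12 listed 8 were in the table, all 5 that were tested were lower with PDGF, and their summed level was 58.5 to 88.8 CPM with PDGF and 496 to 787 CPM without. Of 6 epithelial markers 5 were in the table and 3 of the 4 tested were called lower, with a summed level of 87.2 to 122 CPM without PDGF and 35.6 to 51.9 CPM with it. Peritubular myoid markers, all 7 of which were in the table, summed to 422 to 544 CPM with PDGF and 1033 to 1193 CPM without, with 3 called lower and 0 higher: DES (log2 fold change -3.27), MYLK (-3.20) and ACTA2 (-1.19). Each of these counts stands beside the 10.7% of all genes tested that were called lower. Lower calls also occurred in further lists. Of 6 undifferentiated spermatogonial markers tested, 3 were called lower and 1 higher (median log2 fold change -2.20), beside 10.7% and 7.61% of all genes. Of 2 tested in each of the spermatocyte and differentiating spermatogonial lists, 1 was called lower and 0 higher. Of 8 stromal markers 2 were called lower and 0 higher (median -0.48). The Sertoli and Leydig lists did not move this way. Of 4 Sertoli markers tested 1 was called higher and 0 lower (median log2 fold change 0.08). Of 5 Leydig markers tested 0 were called higher and 1 lower (median 0.27). The part of spermatids, other germ cells, epithelial, peritubular myoid or stromal cells in the EGLN3 difference was not tested. Nor was their part tested in the ARNT2 difference, which had the same direction.

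EGLN2, which encodes the prolyl hydroxylase PHD1, was at 114, 193 and 206 CPM in the PDGF replicates and at 157, 276 and 260.1 CPM in the PDGFNO replicates. The groups overlapped, because replicate 1 was low in both. The means were 171 ± 49.9 CPM (SD, n = 3) and 231 ± 64.7 CPM (SD, n = 3), and the log2 fold change of -0.43 (standard error 0.28, 95% interval -1.08 to 0.21) was not called. It was -0.20 without PDGF replicate 1, -0.28 without PDGFNO replicate 2 and -0.66 without PDGFNO replicate 1. Within batches the difference was -0.46 and -0.43, and with the replicate block it was -0.44 and called.

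HIF1AN was at 22.6, 24.7 and 27.5 CPM in the PDGF replicates and at 21.0, 18.9 and 24.3 CPM in the PDGFNO replicates. The groups overlapped, at means of 24.9 ± 2.45 CPM (SD, n = 3) and 21.4 ± 2.73 CPM (SD, n = 3). The log2 fold change was 0.22 (standard error 0.17, 95% interval -0.17 to 0.61), not called, with 0.11 within batch 1 and 0.28 within batch 2, and the replicate block did not call it either. Without PDGFNO replicate 2 it was 0.14.

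**Figure D2:**
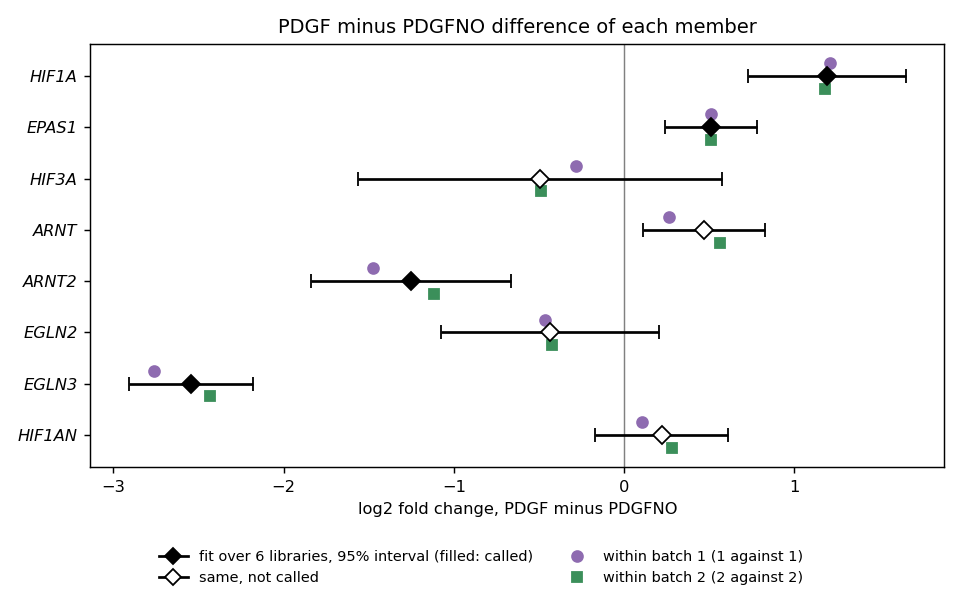
Log2 fold change of each member, PDGF minus PDGFNO (horizontal axis): diamonds with bars give the edgeR fit over 6 libraries and its 95% interval, filled where called, with circles for the difference within batch 1 and squares for batch 2. EGLN3 lies farthest from 0, at -2.55, HIF1A lies at 1.19, and both batches put each member on the same side of 0.

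Batch 1 and batch 2 differed for most genes, with 57.2% of all genes tested called in edgeR's quasi-likelihood test of a batch term beside the group. This measure played no part in the choice of the family. Batch 1 holds 1 library per group, so the spread behind this test comes mostly from replicates 2 and 3. Libraries of a group were compared in pairs by chi-square over its degrees of freedom. This was 3.41 (PDGF) and 3.63 (PDGFNO) between replicates 2 and 3. Pairs with replicate 1 gave 47.6 to 59.4. The calls and adjusted p of the batch term thus do not measure variation between separate cultures or batches. Of the 8 members, 2 were called. HIF1A was higher in batch 1 by 0.50 on the log2 scale (standard error 0.04, adjusted p = 5.0e-11), with replicate 1 above replicates 2 and 3 in both groups. EGLN2 was lower in batch 1, by -0.79 (standard error 0.05, adjusted p = 1.2e-11), again in both groups. For the other 6 members the batch term lay between -0.41 (HIF3A) and 0.40 (ARNT2), and none was called. The share of genes called in a test of whether the PDGF difference depended on the batch was 0% in edgeR (0 of 11539, with 526 at an unadjusted p under 0.05, and 1 called by limma-voom). For the members this interaction lay between -0.38 and 0.31 and the smallest unadjusted p was 0.15, so 0 of 8 members passed an unadjusted p of 0.05 in edgeR or in limma-voom. The spread behind it comes from replicates 2 and 3 alone.

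To compare genes with each other, CPM was divided by the length of all annotated exons of the gene. With PDGF the mean levels, in CPM per kb, were 316 for HIF1A, 80.6 for EGLN2, 51.5 for EPAS1, 7.69 for ARNT, 3.69 for EGLN3, 3.62 for HIF1AN, 0.474 for ARNT2 and 0.158 for HIF3A. In this order EGLN2 and EPAS1 overlapped in their libraries, as did EGLN3 and HIF1AN, and the other neighbours did not. Without PDGF the order was HIF1A at 138, EGLN2 at 109, EPAS1 at 36.2, EGLN3 at 21.5, ARNT at 5.55, HIF1AN at 3.10, ARNT2 at 1.13 and HIF3A at 0.224 CPM per kb. Here only HIF1A and EGLN2 overlapped. EGLN3 thus stood above ARNT without PDGF and below it with PDGF, in every library. The lengths come from Mmul_10, while the processing notes also name Mmul_8.0.1, so levels between genes are approximate.

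**Figure D3:**
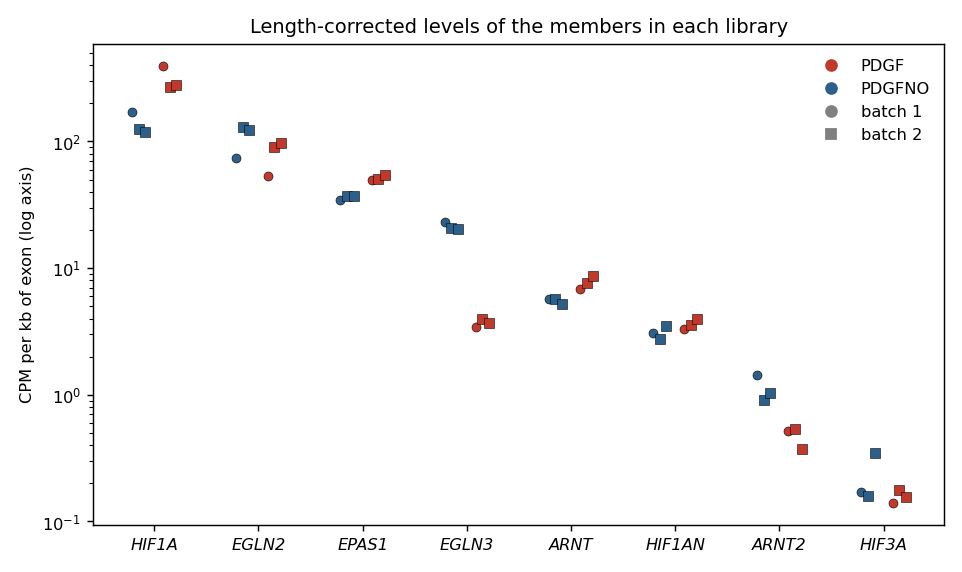
Level of each member in each library in CPM per kb of exon (vertical axis, log scale), ordered by the mean without PDGF, with PDGF in red, PDGFNO in blue, circles for batch 1 and squares for batch 2. HIF1A and EGLN2 are near each other without PDGF and separate with it, and EGLN3 falls from above ARNT to below it.

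Ratios between members within a library do not depend on the scaling between libraries. Per kb of exon, alpha subunit counts exceeded beta subunit counts 60.4-, 39.6- and 37.3-fold in the PDGF replicates and 28.9-, 24.4- and 24.8-fold in the PDGFNO replicates. The log2 ratio was 5.48 ± 0.38 with PDGF and 4.70 ± 0.13 in the controls (SD, n = 3 each), and the groups did not overlap. Most of the alpha sum was HIF1A and most of the beta sum was ARNT, so this ratio largely follows these genes. The log2 ratio of EPAS1 to HIF1A was -2.60 ± 0.35 with PDGF and -1.92 ± 0.33 in the controls (SD, n = 3 each), and PDGFNO replicate 1, at -2.30, lay near PDGF replicate 3, at -2.37. ARNT2 relative to ARNT gave -4.03 ± 0.44 (SD, n = 3) and -2.33 ± 0.34 (SD, n = 3). EGLN3 relative to EGLN2, a ratio chosen after seeing that EGLN1 was not in the table, gave -4.40 ± 0.39 (SD, n = 3) and -2.30 ± 0.55 (SD, n = 3), so the share of EGLN3 in these 2 hydroxylases was lower in every PDGF library.

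**Figure D4:**
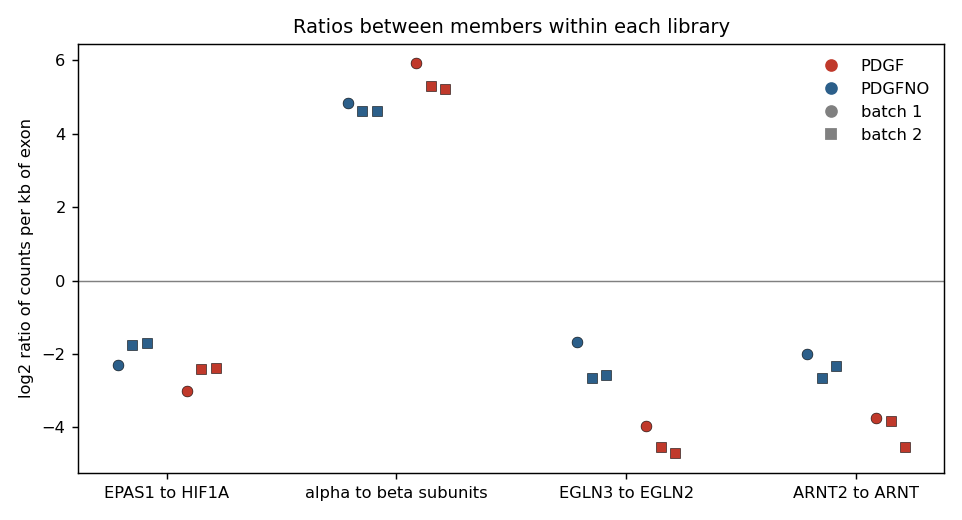
Log2 ratio of counts per kb of exon between members within each library (vertical axis), for EPAS1 to HIF1A, alpha to beta subunits, EGLN3 to EGLN2 and ARNT2 to ARNT, with PDGF in red, PDGFNO in blue, circles for batch 1 and squares for batch 2. In each of the 4 ratios the groups do not overlap, with means of 5.48 and 4.70 for alpha to beta subunits and -4.40 and -2.30 for EGLN3 to EGLN2.

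Genes that act with the family were followed in lists written with earlier results of these data known, and each list is to be read beside the 7.61% of all genes tested that were called higher and the 10.7% called lower, or 31.1% and 29.0% with the replicate block. The ligase complex that VHL recruits (elongins, CUL2, RBX1 and the enzymes that charge it) had 9 listed genes, 8 in the table and 7 tested. Of those tested, edgeR called 0, with 1 at an unadjusted p under 0.05 and 0 called by DESeq2 or limma-voom. Their log2 fold changes ran from -0.75 in ELOB to 0.42 in CUL2, both named here after their values were seen, with a median of -0.06. With the replicate block 2 were called higher and 2 lower, close to the 31.1% and 29.0% of all genes.

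Of 22 tested regulators of HIF stability or activity, 3 were higher and 3 were lower with PDGF, beside 7.61% and 10.7% of all genes, and the median was -0.11. Counts this near the background are no result about the list. The higher genes were HSP90AB1 (log2 fold change 1.23, standard error 0.25), a chaperone that holds HIF1A protein stable, PKM (0.83, standard error 0.14), a glycolytic enzyme and HIF1A coactivator, and EP300 (0.57, standard error 0.15), the coactivator whose contact HIF1AN blocks. HSP90AB1 has near-identical copies in primate genomes that could take part of its reads, so its value is uncertain. The lower genes were ING4 (-0.90, standard error 0.17), a repressor of HIF activity, AJUBA (-0.59, standard error 0.15), which brings VHL and prolyl hydroxylases together, and OS9 (-0.42, standard error 0.12), reported as a partner of both HIF1A and the hydroxylases. EP300 lost its call without any one of 5 libraries (0.47 to 0.67 with PDGF replicate 2 or 3 or PDGFNO replicate 1, 2 or 3 left out). OS9 lost it without any 1 library (-0.47 to -0.39), AJUBA without any but PDGFNO replicate 1 (-0.63 to -0.53), and ING4 without PDGF replicate 2 (-0.77). With the replicate block 5 regulators were called higher and 8 lower, again near the 31.1% and 29.0% of all genes.

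The other bHLH-PAS factors and their coactivators share the dimerization fold of the HIF subunits and in part compete for ARNT. Of 17 listed 16 were in the table and 12 were tested. Of those tested 3 were higher, and edgeR, DESeq2 and limma-voom called 0 lower, also at an unadjusted p under 0.05. The background was 7.61% higher and 10.7% lower. AHR, the dioxin receptor and a partner of ARNT, averaged 1.80 ± 0.867 CPM (SD, n = 3) in the controls against 14.1 ± 1.94 CPM (SD, n = 3) in the PDGF libraries, which the fit put at 2.94 on the log2 scale (standard error 0.33). NPAS2, a clock factor, rose by 0.79 (standard error 0.19) and NCOA3, a steroid receptor coactivator, by 0.64 (standard error 0.16). Both lost their calls without PDGF replicate 2 (0.85 and 0.67) or 3 (0.67 and 0.62) and without PDGFNO replicate 2 (0.84 and 0.64) or 3 (0.85 and 0.57). CLOCK, a gene used by most cells, was listed at 0 in every library, so a count of 0 in this table need not mean that a gene is silent. With the replicate block 7 were called higher and 0 lower, beside 31.1% and 29.0% of all genes, and the list's median was 0.37.

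Of 38 textbook target genes of HIF that are not members, 31 were in the table and 29 were tested. Of those tested, edgeR called 20 higher and 0 lower, beside 7.61% and 10.7% of all genes, with a median of 0.97. At an unadjusted p under 0.05, 1 had a negative difference. DESeq2 called 20 higher and 1 lower, limma-voom 20 and 0, and edgeR with the block 24 and 2. VEGFA (log2 fold change 3.02), the main vessel growth factor, NDRG1 (2.87), a stress-response gene, and HK2 (2.41), the first enzyme of glycolysis, changed most. ANGPTL4, a lipase inhibitor named after its values were seen, was at 28.8 CPM with PDGF and 61.1 CPM without (log2 fold change -1.09, standard error 0.35), not called, and called lower with the block and by DESeq2. EGLN3, itself a known target, was left out of the list as a member. HMOX1 (-0.21), a heme-degrading enzyme also named after its values were seen, was the other target that the block called lower.

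Enzymes that share the oxygen- and 2-oxoglutarate-dependent chemistry of the EGLN proteins, among them histone and nucleic acid demethylases, gave 2 higher and 0 lower of 22 tested, near the 7.61% and below the 10.7% of all genes, with a median of 0.13. DESeq2 called 2 higher, limma-voom 1, and neither called any lower; at an unadjusted p under 0.05 edgeR had 5 higher and 0 lower. TET3, a 5-methylcytosine dioxygenase, changed by 1.07 on the log2 scale (standard error 0.30) and ALKBH5, an RNA demethylase, by 0.43 (standard error 0.13). Each lost its call without PDGF replicate 2 or 3 and without PDGFNO replicate 1, 2 or 3 (0.87 to 1.30 for TET3 and 0.40 to 0.44 for ALKBH5). With the replicate block 10 were called higher and 1 lower, beside 31.1% and 29.0% of all genes.

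**Figure D5:**
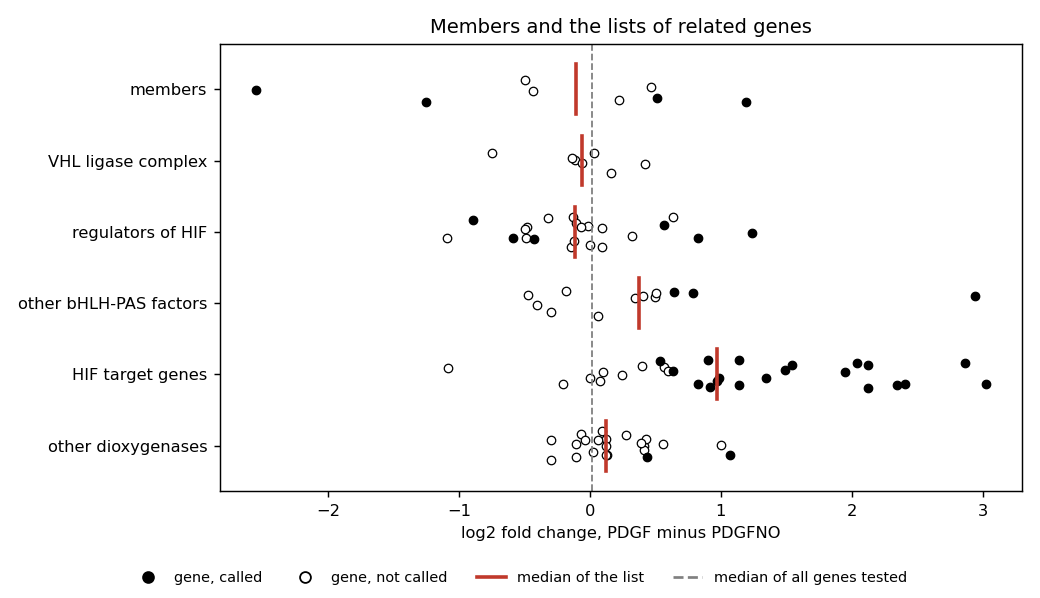
Log2 fold change, PDGF minus PDGFNO (horizontal axis), of each tested gene of the family and of 5 lists of related genes, filled where called, with a red bar for the median of each list and a dashed line for the median of all genes tested. The HIF target genes lie mostly to the right, with a median of 0.97, while the members spread to both sides around a median of -0.11.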

How the data were processed

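The authors deposited raw, unnormalized expected counts per gene for 6 libraries. Values of 13 genes were not whole, so counts were rounded; the design had assumed whole counts. The submitters' processing notes name fastp, HISAT2 2.1.0, SAMtools and featureCounts 2.0.1, and the builds Mmul_10 and Mmul_8.0.1. Annotation and strand setting are not given in the sources used here, so no coordinates are printed. Exon lengths came from RefSeq annotation of Mmul_10, to which 17021 of 17795 genes matched by name, and coding stretches from its transcripts.

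Counts were filtered with filterByExpr, normalized with TMM, and fitted in edgeR 4.0.16 (R 4.3.3) with its quasi-likelihood test and Benjamini-Hochberg adjustment over all genes. Each standard error is the size of the fitted difference over the root of its F statistic. Within-batch differences and ratios had 0.5 counts added. Steps were tested on simulated data. Intervals on counts cover counting error only, since PCR copies cannot be told apart.

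The members and lists were chosen with earlier results of these data known. Besides the members, text names come from a rule: every called gene of the ligase and regulator lists, up to 3 per direction by size in other lists (average log2 CPM of at least 1), and the 3 nearest patterns to the member with the largest difference. The marker genes given by name, ELOB, CUL2, CLOCK, ANGPTL4 and HMOX1 fall outside it and were picked after their values were seen.

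Same-numbered libraries belong to the same batch, and their deviations from group means correlated at r = 0.81, 0.48 and 0.50 for numbers 1, 2 and 3. PDGF replicate 2 with PDGFNO replicate 3 gave 0.53, and PDGF replicate 3 with PDGFNO replicate 2 gave 0.47. Deviations within a group cancel out, so an offset of replicate 1 shared by both groups makes numbers 2 and 3 correlate across groups in any combination. For numbers 2 and 3 the values thus cannot show a shared batch, and they show no closer pairing. Same-numbered libraries were still treated as pairs in a further fit, with a block term for the replicate number. Other alternatives were other normalizations and filters, DESeq2 1.42.0, limma-voom (limma 3.58.1), batch as a term, batch 2 alone and each library left out.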

Additional observations from a re-analysis of the deposited data

How the results depend on the processing

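Member differences were refitted 135 times under 17 alternatives: none changed sign, 121 stayed on their side of the threshold, 8 lost a call and 6 gained one. Of 338 refits of named related genes none changed sign, 53 lost a call and 13 gained one. The count of higher members was 2, and 1 to 2 with a library left out, 1 at an adjusted p under 0.01 and 0 with replicates 2 and 3 summed; the count of lower members was 2, and 1 to 2, 1 and 1 likewise. For the lists, given as higher and lower, the replicate block and the batch term both gave 2 and 2 in the ligase complex, 5 and 8 among regulators, 7 higher bHLH-PAS factors, 2 lower targets, and 10 and 1 among dioxygenases. Batch 2 alone gave 1 and 2 in the ligase complex, 8 lower regulators, 6 higher bHLH-PAS factors, 2 lower targets and 6 higher dioxygenases. With a library left out the ranges were 0 to 1 lower in the ligase complex, 2 to 3 higher and 0 to 5 lower among regulators, 1 to 4 higher bHLH-PAS factors, 16 to 22 higher and 0 to 1 lower targets, and 0 to 3 higher dioxygenases. Replicates 2 and 3 summed, a setting added after the data were seen, left 0 and 0 regulators, 1 bHLH-PAS factor, 12 targets and 0 dioxygenases. At an adjusted p under 0.01 there were 1 and 1 regulators, 1 bHLH-PAS factor and 0 dioxygenases. Upper quartile normalization gave 5 lower regulators, 1 lower target and 1 higher dioxygenase, DESeq2 5 lower regulators and 1 lower target, no count filter 1 higher dioxygenase, at least 10 counts in every library 0, and limma-voom 1. The cause of these shifts was not tested, apart from the fewer libraries or the stricter threshold that some settings have by construction. In the batch term, EPAS1 (0.025) and ARNT (0.0016) changed sign without normalization factors, both uncalled. With 1 library of batch 2 left out, 2 to 3 members had a called batch term. The block changed no other member's call. Counts of HIF promoter motifs and the ratio of EGLN3 to EGLN1 were not run, the latter because EGLN1 was not analysed here. Depth limits HIF3A most.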
